A study of Mus musculus with 20 samples.

Results

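The comparison set 4 livers of mice given the antisense oligonucleotide SPC4955 at 10 mg/kg against 4 livers of mice given SPC3833 at 5 mg/kg. These 8 arrays were chosen by the treatment named in the labels, out of 20 arrays of the series. All mice were female C57BL/6 animals dosed intravenously on 3 consecutive days, and their age is not given in the labels. The livers were collected on day 3 by the treatment protocol and 4 days after the first dose by the source name. The other 12 arrays served as points of comparison: 4 livers with SPC4061 and 4 with SPC3847, both at 10 mg/kg, and 4 with saline. The doses of SPC4955 and SPC3833 differed, so that oligonucleotide and dose cannot be told apart in any difference below.

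An antisense oligonucleotide is a short synthetic strand that pairs with RNA of matching sequence. Some designs recruit RNase H1, an enzyme that cuts the RNA strand of a paired duplex and so lowers the RNA, and others block splicing or translation without cutting. The liver takes up a large part of such strands from the blood, and pairing with RNAs other than the intended one is a known property of the class. The labels give code names only, so that no target, chemistry or difference in structure is stated here.

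Each value is a log2 intensity for 1 of 22361 genes on 1 array, so a difference of 1 is 2-fold. No table at hand pairs the Ensembl identifiers of the rows with symbols, so genes are named by identifier. For this reason the liver label could not be checked against marker genes, and no pathway could be described. In bulk liver, fewer cells of a type and less RNA per cell cannot be told apart. The SPC4955 livers varied more among themselves than the SPC3833 livers. Across genes, arrays correlated between 0.986 and 0.996 within SPC4955 and between 0.995 and 0.997 within SPC3833, against 0.985 to 0.993 between the oligonucleotides. SPC4955 replicate 1 lay farthest from its group, with an SD over genes of 0.236 around the group mean, against 0.135 to 0.168 for the other 3. On the first principal component of the 8 arrays, which held 38.4% of their variance, all 4 SPC4955 arrays lay between -27.5 and -8.65 and all 4 SPC3833 arrays between 14.7 and 17.4. The second component, with 26.9%, separated SPC4955 replicate 1, at 29.9, from its group, whose other arrays lay between -20.9 and -10.1, while SPC3833 lay between -0.20 and 5.65.

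The genes that told the oligonucleotides apart most were, in both directions, genes that 1 of them held far below saline while the other left them near saline. With SPC4955 the level of ENSMUSG00000028127 was 7.24, 7.20, 6.97 and 7.72 in the 4 livers, against 11.96, 11.76, 11.90 and 11.73 with SPC3833 (log2 intensity). The groups did not overlap, and the gap between them was several log2 units. The difference was -4.55 ± 0.11 (SE, n = 4 each), or 23.5-fold lower with SPC4955 (limma adjusted p = 4.3e-16), the largest of all genes called. SPC3833 itself differed from saline by -0.22, which did not pass (limma adjusted p = 0.27). SPC4061 and SPC3847 stood at 12.05 ± 0.09 and 11.98 ± 0.05 and saline at 12.05 ± 0.05 (SD, n = 4 each), so that the 4 SPC4955 arrays were low against all 16 others.

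ENSMUSG00000001576 showed the same placement. Its levels were 7.61, 7.39, 7.40 and 8.01 with SPC4955, against 10.54, 10.68, 10.68 and 10.59 with SPC3833. SPC4955 was lower by 8.11-fold (log2 difference -3.02 ± 0.10, SE, n = 4 each; limma adjusted p = 5.99e-14). The SPC3833 mean lay 0.06 below saline on the log2 scale, with a 95% interval of -0.27 to 0.15. In both genes the highest of the 4 SPC4955 values was that of replicate 4, and the SD among SPC4955 livers (0.32 and 0.29) exceeded that among SPC3833 livers (0.11 and 0.07).

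In the other direction, ENSMUSG00000037965 had levels of 7.89, 8.09, 7.90 and 8.11 with SPC4955, against 5.68, 5.03, 5.11 and 5.11 with SPC3833. It was 6.81-fold higher with SPC4955 (log2 difference 2.77 ± 0.12, SE, n = 4 each; limma adjusted p = 6.27e-12). SPC4955 differed from saline (7.80 ± 0.19) by 0.20, which did not pass (limma adjusted p = 0.43), while SPC3833 was 5.92-fold below saline (limma adjusted p = 2.26e-11). Of the 4 SPC3833 values, 3 lay below the first quartile of their own array. Signal over background is not known from these values, so this fold is a ratio of deposited values and may understate the ratio of RNA. 

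ENSMUSG00000039519 had levels of 8.90, 8.76, 8.35 and 9.02 with SPC4955, against 6.07, 5.76, 6.13 and 6.02 with SPC3833. It was 6.79-fold higher with SPC4955 (log2 difference 2.76 ± 0.18, SE, n = 4 each; limma adjusted p = 2.35e-09). The SPC3833 livers were again the ones that departed from the rest, at 6.13-fold below saline (limma adjusted p = 7.08e-09), while SPC4955 differed from saline by 0.15 (limma adjusted p = 0.76). SPC4061 and SPC3847 averaged 9.02 ± 0.09 and 8.65 ± 0.38 and saline 8.61 ± 0.36 (SD, n = 4 each).

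**Figure D1:**
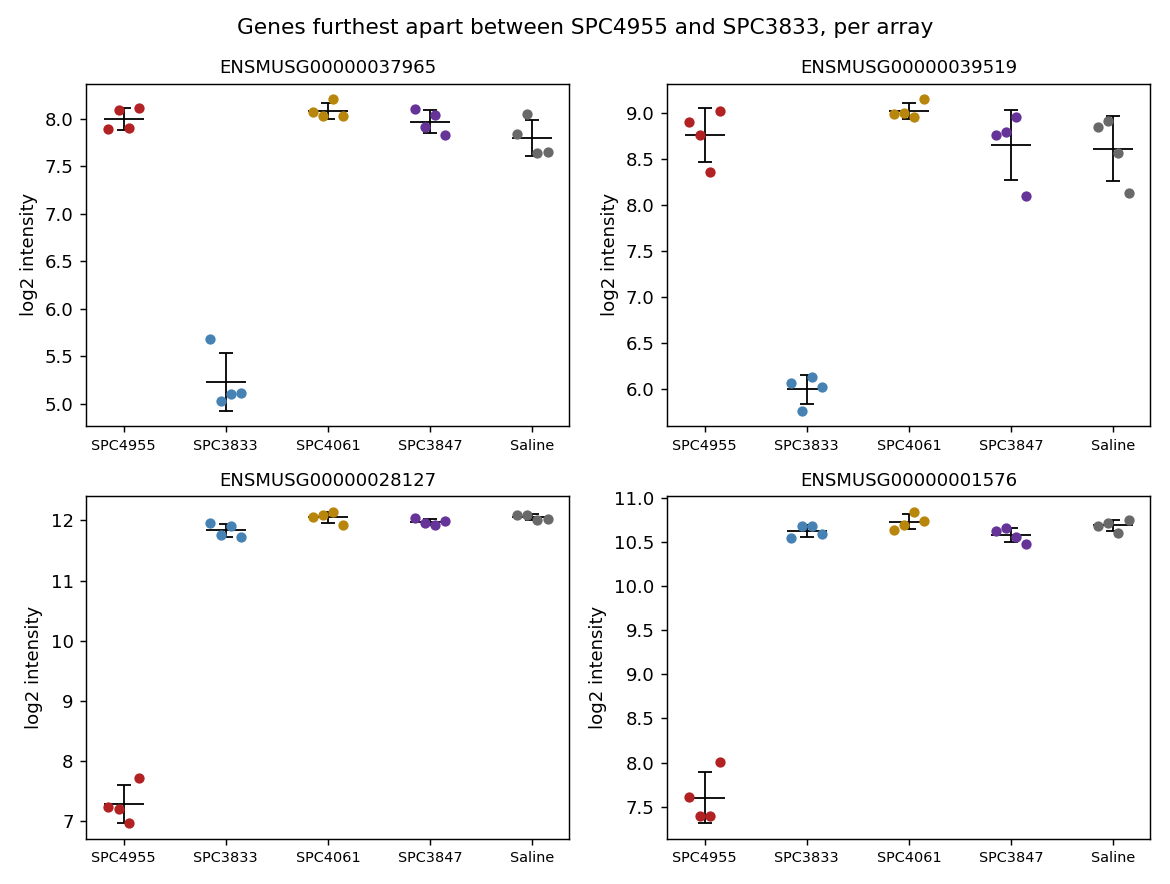
Log2 intensity (vertical axis) of the 4 genes named by the largest differences, 1 point per liver, for SPC4955, SPC3833, SPC4061, SPC3847 and saline (horizontal axis), with group mean and SD as black bars. In the lower pair only the 4 SPC4955 livers are low, and in the upper pair only the 4 SPC3833 livers, at 5.03 to 6.13.

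Over all genes, 53 were higher by at least 2-fold with SPC4955 than with SPC3833 and 45 were lower by at least 2-fold (limma adjusted p below 0.05), which is 0.237% and 0.201% of the genes tested. The 8 arrays did not overlap between the oligonucleotides in 52 of the 53 and 44 of the 45, against 16.4% of all genes. These genes were chosen by the difference between the same 8 arrays, which largely fixes this outcome. Of the 1301 genes called at any size, 1225 had arrays that did not overlap. A difference of 4-fold or more was reached by 7 of the higher and 5 of the lower genes. Which direction held more genes depended on the scaling. When the width of the distribution on each array (its quartile range) was entered as a covariate, 43 genes were higher by at least 2-fold and 57 lower. The width was larger in every SPC4955 array (2.99 to 3.21) than in any SPC3833 array (2.87 to 2.97). This covariate therefore also takes up part of the difference between the oligonucleotides. Quantile normalization gave 51 and 52, and without SPC4955 replicate 4, the array with the widest distribution, the counts were 48 and 51. Without SPC4955 replicate 1, the array farthest from its group, they were 60 and 47.

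Without a minimum change, 796 genes were higher with SPC4955 (3.56%) and 505 lower (2.26%), with a median difference of 1.35-fold among the higher and 1.32-fold among the lower. Of these, 61.2% were higher. The share was 49.4% when arrays were quantile normalized (787 higher against 805 lower) and 45.7% with the width covariate (689 against 819), so that neither direction can be called the larger. Most genes did not pass, and for many the interval was narrow. The 95% interval of the difference lay within 1.25-fold either way for 50.9% of all genes and within 1.5-fold for 90.5%. The interval reached 1.15-fold to either side of the estimate in the median gene.

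Called differences were concentrated in bright genes. Genes were divided by their mean level over the 20 arrays into 4 equal classes. In the brightest class 11.6% differed between SPC4955 and SPC3833, against 8.50%, 2.34% and 0.841% in the next, the third and the dimmest class and 5.82% of all genes. Of the 98 genes at least 2-fold apart, 55 lay in the brightest class and 2 in the dimmest. Dim genes carry more background in their values, and the part of background in this order was not tested.

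**Figure D2:**
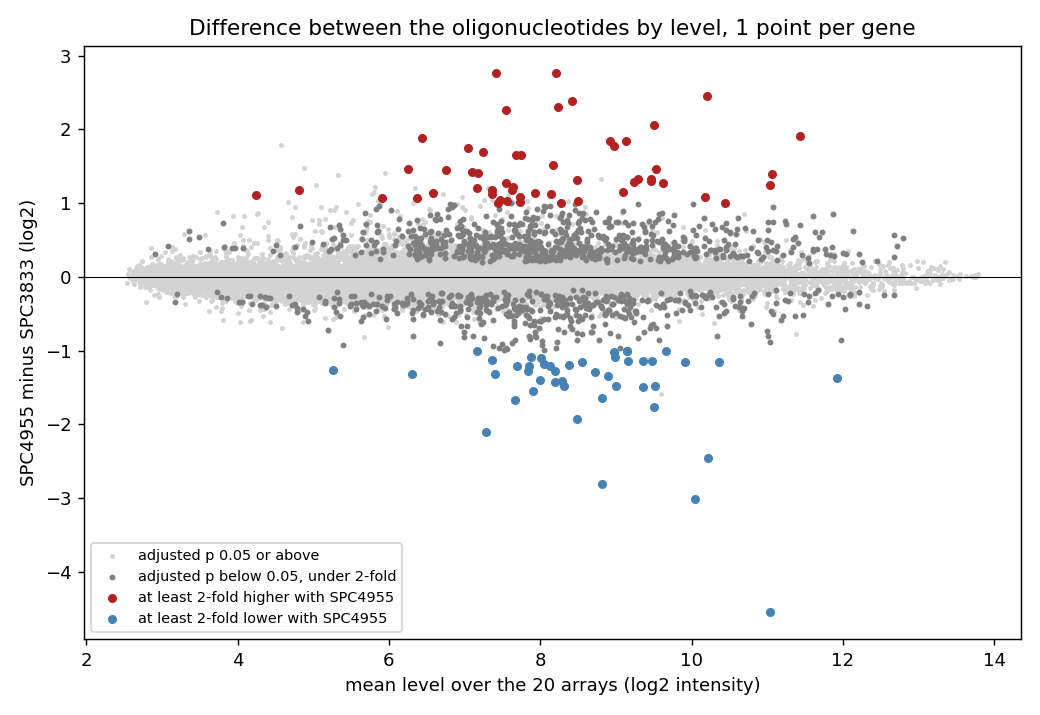
Difference SPC4955 minus SPC3833 in log2 units (vertical axis) against the mean level over the 20 arrays in log2 intensity (horizontal axis), 1 point per gene. The 53 genes at least 2-fold higher and the 45 at least 2-fold lower are coloured, and most lie at middle and high levels, with the largest difference at -4.55.

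Most of these genes lay below saline with 1 oligonucleotide and near it with the other, in both directions. The comparisons with saline share the arrays of the oligonucleotides with the difference itself, so the counts are a description of where the genes lie. Of the 45 genes at least 2-fold lower with SPC4955, 43 were lower than saline with SPC4955 (2.37% of all genes were), and 37 of these did not differ from saline past the threshold with SPC3833. Higher than saline with SPC3833 were 4 of the 45, a larger share than the 3.71% of all genes. This number lay between 2 and 10 over the alternatives. Of the 53 genes at least 2-fold higher with SPC4955, 45 were lower than saline with SPC3833 (3.35% of all genes were), 39 of them without a call against saline with SPC4955. In 8 of the 53, SPC4955 was higher than saline, also a larger share than the 4.22% of all genes. Thus 88 of the 98 genes had the oligonucleotide with the lower level called below saline.

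Livers of 1 group gave close values over these sets. The test that chose the genes favours a small spread within groups, so this closeness is a description only. Over the 45 genes, the median level relative to the saline mean was -1.35, -1.43, -1.43 and -1.09 in the 4 SPC4955 livers, against 0.04, 0.00, 0.00 and -0.05 in the 4 SPC3833 livers (log2). Over the 53 genes it was -0.05, 0.05, 0.11 and 0.21 in the SPC4955 livers, against -1.32, -1.27, -1.34 and -1.35 in the SPC3833 livers. The gap between the oligonucleotides follows from how the genes were chosen, while the nearness of the other one to saline does not. The arrays of SPC4061 and SPC3847, which entered the choice through the shared spread but not through their means, had medians between -0.20 and 0.12 over the 45 genes and between -0.26 and 0.08 over the 53. Single genes lay far from these medians. The mean change from saline with SPC4061 ran from -1.67 to 4.63 over the 45 and from -1.14 to 2.12 over the 53. With SPC3847 it ran from -0.75 to 0.46 and from -0.83 to 0.45.

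In most of these genes the oligonucleotide with the lower level was set apart from every other group. Of the 45, 42 were lower with SPC4955 than with saline, SPC4061 and SPC3847 as well, where 5.17% of all genes were lower with SPC4955 than with SPC4061 and 2.85% lower than with SPC3847. Of the 53, 39 were lower with SPC3833 than with saline, SPC4061 and SPC3847 as well, where 9.5% of all genes were lower with SPC3833 than with SPC4061 and 3.34% lower than with SPC3847. By a higher level, 6 of the 53 were higher with SPC4955 than with each other group, and 1 of the 45 was higher with SPC3833 than with each other group. Of all genes, 4.22%, 3.58% and 4.7% were higher with SPC4955 than with saline, SPC4061 and SPC3847. For SPC3833 the shares were 3.71%, 7.42% and 3.02% in the same order. The share of all genes that passed such tests together was not counted. These tests share the arrays of 1 oligonucleotide, and the difference between the counts was not tested.

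The livers with SPC4955 were also the less even ones over the genes that SPC4955 lowered. The median SD over the 45 genes was 0.202 with SPC4955 and 0.0864 with SPC3833, and the SD was larger with SPC4955 in 39 of the 45, against 63.3% of all genes. Over the 53 genes the medians were 0.228 with SPC4955 and 0.167 with SPC3833, and 30 of the 53 had the larger SD with SPC4955.

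**Figure D3:**
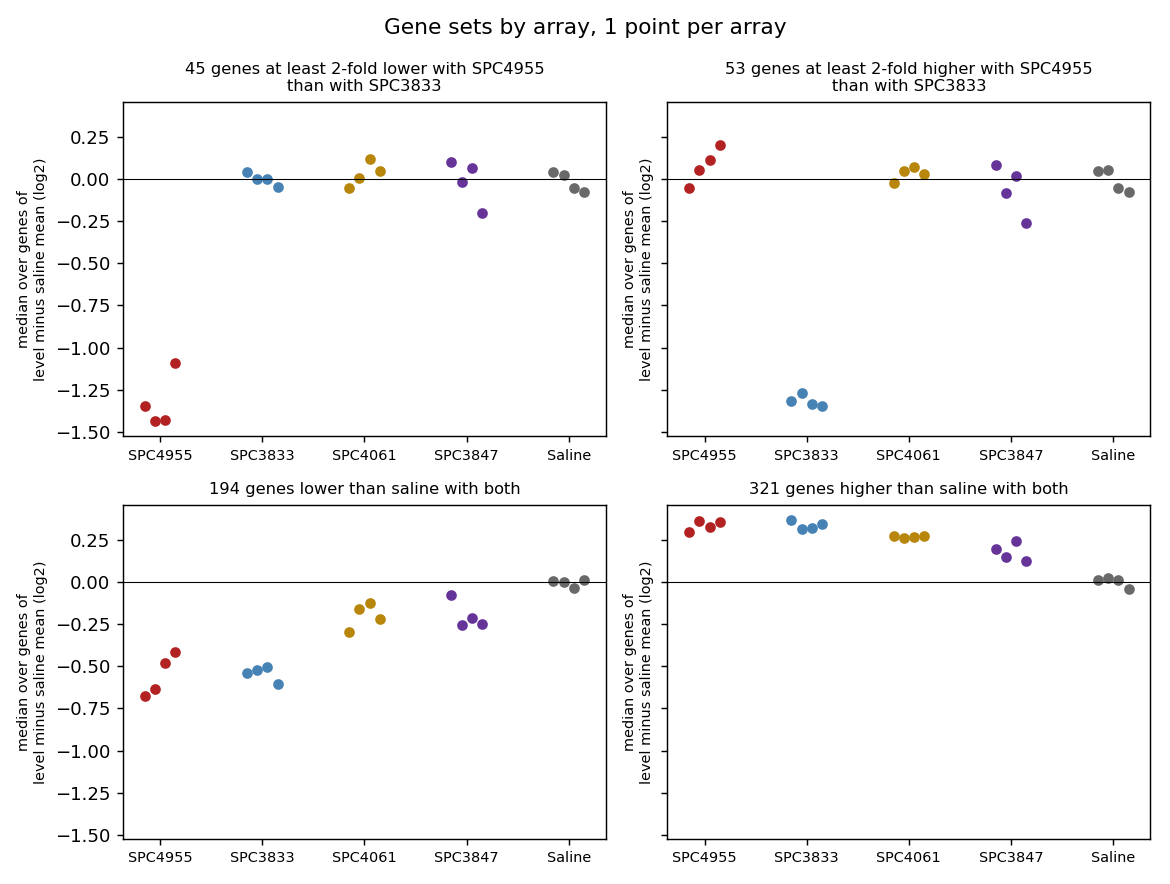
Median over genes of the level minus the saline mean in log2 units (vertical axis), 1 point per liver and group (horizontal axis), for the 45 genes lower and the 53 higher with SPC4955 than with SPC3833 and for the 194 genes lower and the 321 higher than saline with both. In the upper panels 1 oligonucleotide lies below -1 and every other array between -0.26 and 0.21, and in the lower panels both oligonucleotides lie on the same side of saline.

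A small number of genes moved in opposite directions. With 9 genes SPC4955 was higher and SPC3833 lower than saline, and with 7 it was the other way round. All 16 also differed between the oligonucleotides past the threshold. The choice of these genes largely fixes this outcome, because opposite changes from saline add up in the difference between the oligonucleotides. In the 9 genes the change ran from 0.18 to 0.59 with SPC4955 and from -0.55 to -0.21 with SPC3833 (log2). In the 7 it ran from -1.42 to -0.19 with SPC4955 and from 0.20 to 0.54 with SPC3833.

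Genes that both oligonucleotides moved to the same side of saline changed by modest amounts. Against saline, 321 genes were higher and 194 lower with both. The 2 comparisons use the same 4 saline arrays, whose error they share, and no overlap was tested. The first count depended on single arrays and on scaling: leaving out saline replicate 4 gave 169, leaving out SPC4955 replicate 2 gave 192, and centring arrays on their medians gave 105. The median change of the 194 lowered genes was -0.55 with SPC4955 and -0.56 with SPC3833, and that of the 321 raised genes was 0.33 with SPC4955 and 0.33 with SPC3833, against 0.01 and 0.05 over all genes (log2). The change with SPC4955 was the larger of the pair in 85 of the 194 and 158 of the 321, against 10348 of all 22361 genes. SPC4955 was given at the higher dose, but these counts cannot tell dose from oligonucleotide.

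Being on the same side of saline did not mean an equal change. Among the 194 lowered genes, 16 were lower with SPC4955 and 14 lower with SPC3833, which together is 15.5%, against 5.82% of all genes. Among the 321 raised genes, 4 were higher with SPC4955 and 10 higher with SPC3833, which is 4.36%. Both sets were mostly bright, which the share of all genes does not take into account. Of the 194, 61.9% lay in the brightest class, and of the 321, 66.7%, where 11.6% of genes differed. The interval of the difference lay within 1.5-fold either way in 143 of the 194 (73.7%) and 312 of the 321 (97.2%), against 90.5% of all genes. This band is wider than the median change against saline. That change was 1.26-fold with each oligonucleotide in the 321, and 1.46-fold (SPC4955) and 1.47-fold (SPC3833) in the 194. Lying within the band therefore does not show equal changes, and 2 of the 143 and 11 of the 312 were called different. The count of 143 was 94 without SPC4955 replicate 2 and 246 with the width covariate. The count of 312 was 165 without saline replicate 4, 185 without SPC4955 replicate 2, 100 with arrays centred on their medians, 497 with array quality weights and 476 with the width covariate. Of the 19 genes at least 2-fold lower with both, 6 had such an interval, and in the median gene of the 19 it reached 1.34-fold to either side. The 19 spanned changes from -2.90 to -1.01 with SPC4955 and from -3.32 to -1.05 with SPC3833, and 4 of them differed between the oligonucleotides. Alone against saline, 0.344% of all genes were at least 2-fold lower with SPC4955 and 0.376% with SPC3833, and 0.085% and 0.0268% at least 2-fold higher. Only 3 genes were at least 2-fold higher with both, with changes from 1.18 to 1.52 with SPC4955 and from 1.23 to 1.44 with SPC3833.

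ENSMUSG00000056899 was the gene lowered most among those alike. Its levels were 7.65, 7.70, 7.88 and 8.19 with SPC4955 and 8.11, 8.02, 7.84 and 7.93 with SPC3833, against 9.54, 9.56, 9.42 and 9.59 with saline. All 8 livers with SPC4955 or SPC3833 lay below all 4 saline livers, which the rule that chose this gene required. The oligonucleotides overlapped each other. It was 3.18-fold lower than saline with SPC4955 (limma adjusted p = 3.36e-09) and 2.93-fold lower with SPC3833 (limma adjusted p = 7.08e-09). The difference between them was -0.12 (95% interval -0.34 to 0.10; limma adjusted p = 0.55). SPC4061 and SPC3847 stood at 8.78 ± 0.19 and 8.66 ± 0.05 (SD, n = 4 each). Both SPC4955 and SPC3833 were lower than each of these, by 1.61-fold to 1.90-fold (highest limma adjusted p = 0.000347).

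ENSMUSG00000020917 had levels of 9.76, 9.95, 10.84 and 10.51 with SPC4955 and 10.14, 10.46, 10.52 and 10.13 with SPC3833, against 11.27, 11.40, 11.62 and 12.09 with saline. It was 2.51-fold lower than saline with SPC4955 (limma adjusted p = 0.000925) and 2.43-fold lower with SPC3833 (limma adjusted p = 0.0012). The livers spread widely within SPC4955, with an SD of 0.50, and the difference between the oligonucleotides of -0.05 has a 95% interval of -0.52 to 0.43. SPC4061 and SPC3847 averaged 11.08 ± 0.22 and 11.27 ± 0.40 (SD, n = 4 each). Both SPC4955 and SPC3833 were lower than each of these (highest limma adjusted p = 0.0282).

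Among the genes higher with both, ENSMUSG00000023067 had levels of 8.53, 7.97, 7.14 and 7.44 with SPC4955 and 7.51, 7.99, 7.86 and 7.90 with SPC3833, against 6.99, 6.53, 6.60 and 6.23 with saline. It was 2.27-fold higher than saline with SPC4955 (limma adjusted p = 0.00332) and 2.35-fold higher with SPC3833 (limma adjusted p = 0.00213). SPC4955 replicate 1 was the highest and replicate 3, close to the highest saline liver, the lowest of the 8. The log2 change with SPC4955 was 1.18 over its 4 livers and 0.93 when replicate 1 was left out. The difference between the oligonucleotides was -0.05 (95% interval -0.53 to 0.44). SPC4061 and SPC3847 averaged 7.21 ± 0.20 and 6.94 ± 0.32 (SD, n = 4 each). Against SPC4061, neither SPC4955 (limma adjusted p = 0.163) nor SPC3833 (limma adjusted p = 0.076) passed. Against SPC3847 both were higher (limma adjusted p = 0.033 and 0.0268).

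ENSMUSG00000020805 had levels of 7.0, 6.99, 6.96 and 7.23 with SPC4955 and 6.91, 6.89, 6.56 and 6.72 with SPC3833, against 6.07, 6.17, 5.71 and 6.07 with saline. It was 2.05-fold higher than saline with SPC4955 (limma adjusted p = 5.93e-06) and 1.70-fold higher with SPC3833 (limma adjusted p = 0.000243). The 4 SPC4955 livers lay above the 4 SPC3833 livers, but the difference of 0.28 (95% interval 0.04 to 0.51) did not pass after adjustment over all genes (limma adjusted p = 0.18). Its level with SPC4061 and SPC3847 was 6.68 ± 0.10 and 6.63 ± 0.22 (SD, n = 4 each), also above saline.

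**Figure D4:**
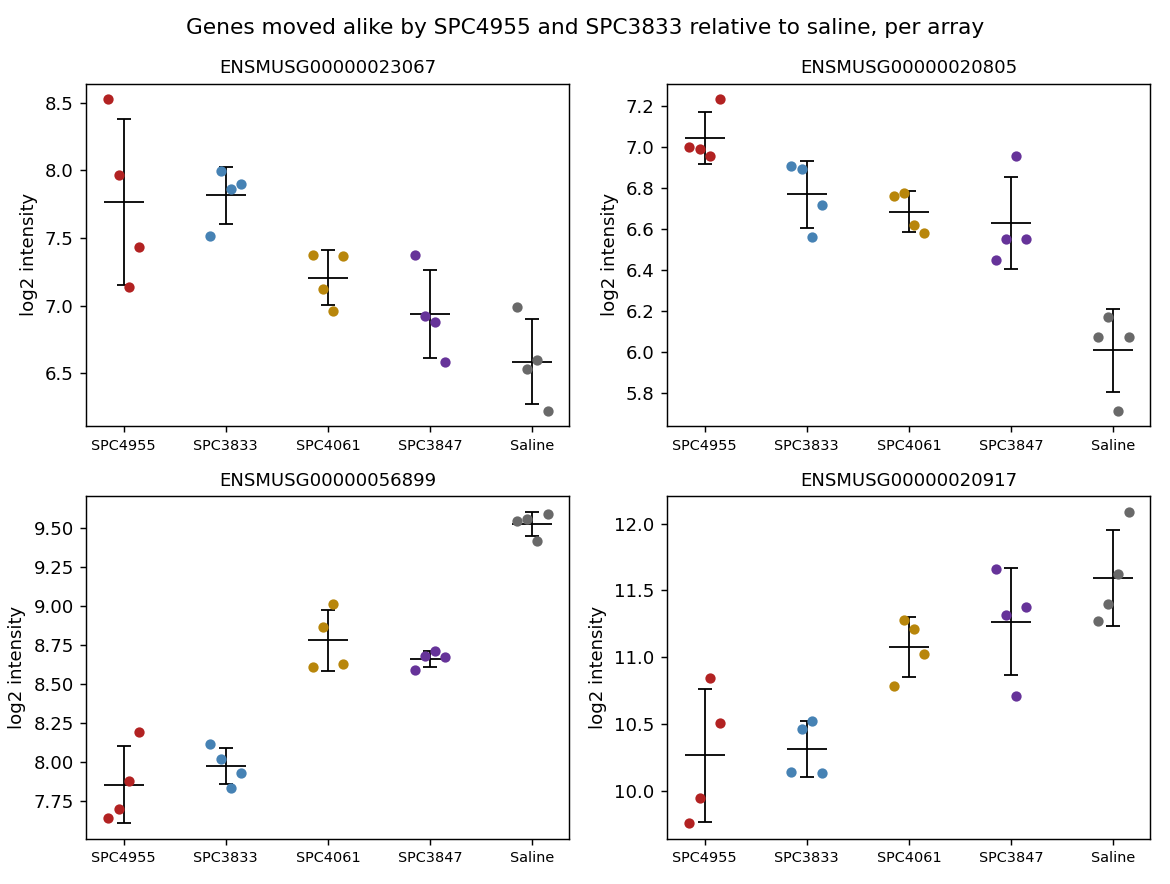
Log2 intensity (vertical axis) of the 4 genes named as moved alike, 1 point per liver, for SPC4955, SPC3833, SPC4061, SPC3847 and saline (horizontal axis), with group mean and SD as black bars. In each panel all 8 livers with SPC4955 or SPC3833 lie beyond the 4 saline livers, by the rule that chose the genes. In ENSMUSG00000056899 SPC4061 and SPC3847 lie between, at 8.78 and 8.66.

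The other oligonucleotides were set beside these for the genes on the same side of saline with both. Over the 194 lowered genes the median change was -0.55 with SPC4955 and -0.56 with SPC3833, -0.21 with SPC4061 and -0.22 with SPC3847. Over the 321 raised genes it was 0.33 with SPC4955 and 0.33 with SPC3833, 0.27 with SPC4061 and 0.18 with SPC3847. All 4 values share the saline arrays that also chose the genes, which moves them to the same side, so the values with SPC4061 and SPC3847 are given as a description only. Per liver, the lowered genes lay between -0.67 and -0.41 with SPC4955 and between -0.61 and -0.50 with SPC3833, and between -0.30 and -0.08 in the 8 livers with SPC4061 or SPC3847.

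The saline means can be left out by setting SPC4955 and SPC3833 against SPC4061 and SPC3847. The saline arrays still enter these tests through the shared spread. In all 4 of these tests, 91 genes were lower and 57 higher with both SPC4955 and SPC3833. The 4 tests share arrays in pairs. In the single tests 5.17% (SPC4955 against SPC4061), 2.85% (SPC4955 against SPC3847), 9.5% (SPC3833 against SPC4061) and 3.34% (SPC3833 against SPC3847) of all genes were lower, and 3.58%, 4.7%, 7.42% and 3.02% higher, in the same order. Of the 91, 22 were at least 1.5-fold lower in each of the 4 tests, and of the 57, 8 were at least 1.5-fold higher in each. Among the 91, 52 were lower than saline with both as well, and among the 57, 21 were higher than saline with both. Of all 22361 genes, 194 were lower and 321 higher than saline with both. The calls against saline use the same SPC4955 and SPC3833 arrays that chose the 91 and the 57. This favours an overlap, which was not tested. The interval between SPC4955 and SPC3833 lay within 1.5-fold in 64 of the 91 (70.3%) and 53 of the 57 (93.0%), against 90.5% of all genes. With arrays centred on their medians the 57 became 23. Array quality weights gave 121 in place of the 57 and 186 in place of the 91.

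**Figure D5:**
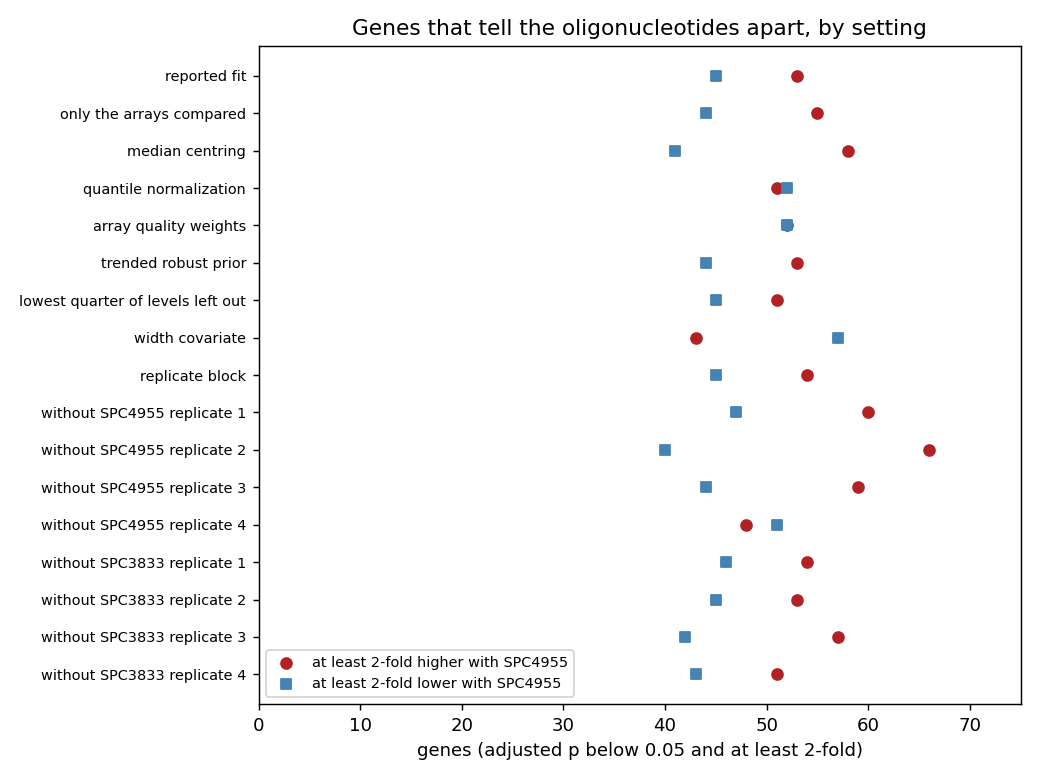
Number of genes higher and lower by at least 2-fold with SPC4955 than with SPC3833 (horizontal axis) in the reported fit, under 8 other settings and without each of the 8 arrays (vertical axis). The higher count runs from 43 to 66 and the lower from 40 to 57, and their order turns under the width covariate, after quantile normalization and without SPC4955 replicate 4.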

How the data were processed

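Liver RNA was labelled with biotin by a whole-transcript sense-target method and hybridised to Affymetrix arrays of 1 colour, per the labels' protocols. The authors deposited log2 intensities, 1 per gene and array, as the values show. The affy package is named in the submitters' processing notes, while background correction, normalization and the assignment of probes are not stated there. Array medians (6.37 to 6.53) and quartile ranges (2.70 to 3.21) differed, and the quartile ranges of SPC4955 and SPC3833 did not overlap. Entering the quartile range as a covariate changed which direction held more calls. It also takes up part of the difference between these oligonucleotides, so its own bearing on the direction cannot be told apart. The number of arrays limits the precision.

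A linear model with 1 mean per group over the 20 arrays and 22361 genes was fitted by lmFit, contrasts.fit and eBayes of limma 3.58.1 (R 4.3.3, 15 residual degrees of freedom). The code was tried on simulated data with 1 spread per gene for all groups. In the deposited values the median SD differed between groups (0.120 with SPC4955, 0.0954 with SPC3833), so the simulation does not test the fit under unequal spread. P-values were adjusted by Benjamini-Hochberg over all genes of a comparison, with a threshold of 0.05. No gene was filtered out. Changes were called alike where the 95% interval of SPC4955 minus SPC3833 lay within 1.5-fold. The labels call the samples biological replicates. Of the identifiers, 0 matched the gene table at hand (GRCm38.p6), so the 20 lists of genes and cell markers were not used and the rule for named genes was reduced, as planned for that case, to the 2 largest in each direction, apart and alike, with arrays that did not overlap. The members and lists were chosen with earlier results of these data known. The placement counts, the tests against SPC4061 and SPC3847 and their alternatives were chosen after seeing the data. Same-numbered SPC4955 and SPC3833 arrays did not deviate together (correlations across genes from -0.118 to 0.0129).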

Additional observations from a re-analysis of the deposited data

Results flagged for a closer look

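In 3 of 22 groups of 4 examined (the named genes and 3 measures per array, with SPC4955 and with SPC3833), 1 liver stood apart from the other 3 by Dixon's test at the 95% level, where chance gives about 1 in 20. ENSMUSG00000037965 was at 5.68 in SPC3833 replicate 1, against 5.03 to 5.11 in the other SPC3833 livers. ENSMUSG00000020805 was at 7.23 in SPC4955 replicate 4, against 6.96 to 7.0 in the other SPC4955 livers. The quartile range of SPC4955 replicate 4 was 3.21, against 2.99 to 3.03 in the other SPC4955 arrays.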

How the results depend on the processing

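Over 256 combinations of a named gene's comparison and an alternative, every one kept its side of the threshold, and no called direction turned. The differences of the 4 genes furthest apart ranged from 2.65 to 2.92 (ENSMUSG00000037965), 2.54 to 2.90 (ENSMUSG00000039519), -4.70 to -4.45 (ENSMUSG00000028127) and -3.16 to -2.95 (ENSMUSG00000001576), with adjusted p of at most 2.63e-06. Their arrays did not overlap by the rule that chose them, so leaving out an array could not turn a direction. The same holds for the changes from saline of the 4 genes named as moved alike. Of the 98 genes at least 2-fold apart, between 87 (width covariate) and 98 were called again under each alternative, and the 2-fold counts stayed within 1.5 times. Counts of any size moved more, and the causes were not tested. Between SPC4955 and SPC3833, array quality weights gave 1452 genes higher and 1090 lower, and the lower count was 805 after quantile normalization and 819 with the width covariate. The genes higher than saline with both numbered 105 after median centring, 512 with array quality weights and 492 with the width covariate, and between 169 and 357 without 1 array. Those lower with both numbered 318 with the width covariate. With the replicate number as a block, 747 genes were higher and 439 lower, 54 and 45 of them at least 2-fold. This block changed no call of a named gene. Signal over background is unknown, so values at low levels may hold background.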
